A study of Mus musculus with 16 samples.

Results

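Free cytosolic DNA and micronuclei were compared as stimuli in the 8 libraries of tumours grown from the CIN line, 4 libraries for each form of DNA, of 16 libraries in the whole series. The 8 were chosen by their labels alone, and no expression value entered the choice. RNA was sequenced from orthotopic tumours of MC38 cells, a mouse colon carcinoma line, grown in the descending colon of C57BL/6 mice. One line of these cells is named for chromosomal instability (CIN) and the other for microsatellite instability (MSI). Bone marrow derived dendritic cells were given 2 µg of DNA with a lipid transfection reagent for 30 minutes, washed, and injected into the peritoneum on days 1, 6 and 12, and tumours were taken on day 15. All 8 libraries therefore come from CIN tumours in mice that received DNA-loaded dendritic cells. The 4 groups of 2 libraries were free DNA from MSI cells, free DNA from CIN cells, micronuclei from MSI cells and micronuclei from CIN cells. Below, a library is named by its DNA source, form and replicate number. No group given unloaded dendritic cells was analysed here, so each value is a contrast between the 2 forms and not a response to DNA. The RNA of 3 biological replicates was combined in equal amounts before sequencing, per the series description. It is not stated whether the 2 libraries of a group are separate pools, so a p-value reflects how far the libraries scatter, and some of that scatter may be technical. The RNA measured is that of the whole tumour and not of the injected cells.

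DNA in the cytosol is bound by cGAS, which makes a cyclic dinucleotide that activates STING. STING recruits TBK1, which switches on IRF3 and type I interferon, and it also activates NF-kB, the factor behind many inflammatory cytokines and chemokines. Micronuclei are small bodies of chromatin with a nuclear envelope of their own, and their DNA reaches cGAS when that envelope ruptures. Free cytosolic DNA has no such envelope. Dendritic cells that sense DNA can present antigen and send interferon and chemokines to T cells, while the chemokines Cxcl1, Cxcl2 and Cxcl3 draw neutrophils through the receptor Cxcr2.

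No gene passed the test for a difference between free DNA and micronuclei. In edgeR's quasi-likelihood test with DNA source as a covariate, 0 of 17604 genes (0%) had an adjusted p (Benjamini-Hochberg, over all genes tested) under 0.05, and the smallest adjusted p was 0.99995. At an unadjusted p under 0.05 stood 102 genes (0.579%), 70 higher with free DNA (0.398%) and 32 lower (0.182%). DESeq2 also called 0 genes, with 73 higher and 39 lower at an unadjusted p under 0.05, and limma-voom called 0. Without MSI micronuclei 1 edgeR again called 0, with 522 genes at an unadjusted p under 0.05, and without MSI free 1 it called 0, with 337. In 91 genes (0.517%) all 4 free DNA libraries were higher in CPM (counts scaled to a fixed library total) than all 4 micronuclei libraries, and in 54 (0.307%) all 4 were lower. In either direction this was 0.824% of genes. Of the 70 ways to split 8 libraries into 4 and 4, a share of 0.0286 separates a gene's values fully. Genes without overlap were rarer than that share, so a lack of overlap is by itself no sign of a difference. The 102 genes were likewise a share below 0.05. The log2 fold change, free DNA minus micronuclei, was above 0 in 10305 genes (58.5%) and below 0 in 41.5%, and its median over all genes was 0.026. Every gene and list below is read against these shares. Since no gene had an adjusted p below 0.99995, most log2 fold changes are given with their standard error (SE) and no p. Some are given without an SE. Means are over 4 libraries with their SD.

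Tissue content varied widely between the libraries of both forms. The first principal component of log2 CPM held 62.4% of the variance and set MSI micronuclei 1 apart from the rest, at 150.5 against -69.7 to 18.9. The colon epithelium list (24 genes, mean log2 CPM) stood at 2.24 in that library and at 6.39 to 8.16 in the other 7, and the smooth muscle list at 2.70 against 4.63 to 6.15. Transcripts of skeletal muscle were high in 4 libraries, MSI micronuclei 1 and 2, MSI free 2 and CIN free 2, at 2.86 to 3.68, and lay between -0.60 and 0.51 in the other 4. Epcam, the epithelial adhesion molecule, ranged over 227 to 671 CPM for free DNA against 12.3 to 699.8 CPM for micronuclei, the lowest value being that of MSI micronuclei 1. Library totals ran from 11561955 to 17937501 counts, with a mean of 16246400 ± 1998710 for free DNA and 12969800 ± 1732110 for micronuclei. An exact permutation test of both tails over the 70 arrangements gave p = 0.0571 for the totals (0.229 adjusted over 4 measures), where 0.0286 is the smallest p possible. Fewer cells of a type and less RNA per cell cannot be told apart in whole-tumour RNA. Below, list values are also given without single libraries or without the 4 muscle-rich libraries for lists whose direction or size depended on them. Leaving out those 4 removes both MSI micronuclei libraries. It sets MSI free 1 and CIN free 1 against CIN micronuclei 1 and 2, with no DNA source term. Form, DNA source and muscle content are therefore mixed in that setting and cannot be told apart.

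**Figure D1:**
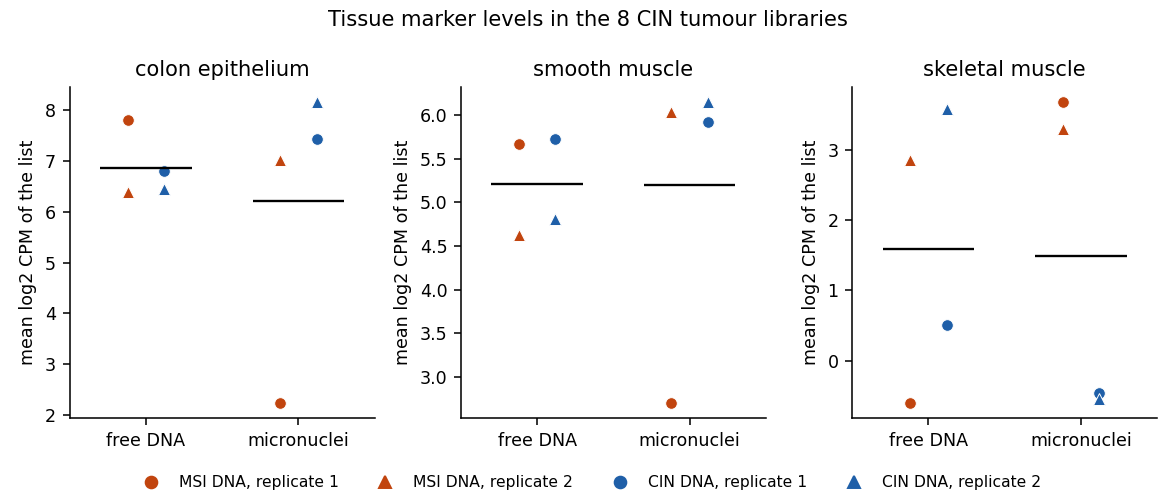
Mean log2 CPM of 3 tissue marker lists (y axes) in the 4 free DNA and 4 micronuclei libraries of CIN tumours; colour gives the DNA source, shape the replicate number and the bar the mean. MSI micronuclei 1 is low for colon epithelium (2.24) and smooth muscle (2.70), and 4 libraries, 2 of each form, are at 2.86 to 3.68 for skeletal muscle.

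Inflammatory cytokines and chemokines were the list with the most members at a low p. Of its 28 tested genes 24 were higher with free DNA (58.5% of all genes were), the median log2 fold change was 0.39 (0.026 over all genes), and 0 members passed the adjusted threshold. At an unadjusted p under 0.05 were 9 members, all higher: Cxcl2, Osm, Cxcl3, Il1b, Cxcl1, Lif, Il6, Csf3 and Ccl2. In Cxcl1 and Osm the 2 forms did not overlap. Cxcl3, Il1b, Lif, Csf3 and Ccl2 were outside the rule for named genes and were picked after their values were seen. Csf1, the macrophage growth factor, was at 229.8 CPM with free DNA and at 220.3 CPM with micronuclei (log2 fold change 0.077). The 4 members that were lower with free DNA were Il33, Cxcl12, Ccl5 and Ccl22, at log2 fold changes of -0.23, -0.21, -0.10 and -0.045. Il10, Il12a and Il23a were too low to test.

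The 3 neutrophil chemokine genes and Il6 lie on mouse chromosome 5, and the 250 bases before each start site are shown because these 4 are the members, of the 6 low-p members found in the RefSeq promoter table (build GRCm38.p6), that hold the NF-kB form GGGNNTTTCC. Both strands were searched, and capitals mark each match.
Cxcl1, chr5:90890995-90891244, plus strand: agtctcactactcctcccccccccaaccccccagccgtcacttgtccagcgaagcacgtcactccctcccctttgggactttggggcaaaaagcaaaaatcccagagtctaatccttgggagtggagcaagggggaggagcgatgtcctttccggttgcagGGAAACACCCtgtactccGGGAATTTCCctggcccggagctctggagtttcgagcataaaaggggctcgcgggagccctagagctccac
Cxcl2, chr5:90903649-90903898, plus strand: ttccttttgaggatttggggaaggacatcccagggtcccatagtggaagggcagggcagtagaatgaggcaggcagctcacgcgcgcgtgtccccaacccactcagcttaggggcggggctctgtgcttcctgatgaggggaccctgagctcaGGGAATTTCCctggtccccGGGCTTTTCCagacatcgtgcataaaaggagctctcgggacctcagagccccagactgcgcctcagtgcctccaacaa
Cxcl3, chr5:90785851-90786100, plus strand: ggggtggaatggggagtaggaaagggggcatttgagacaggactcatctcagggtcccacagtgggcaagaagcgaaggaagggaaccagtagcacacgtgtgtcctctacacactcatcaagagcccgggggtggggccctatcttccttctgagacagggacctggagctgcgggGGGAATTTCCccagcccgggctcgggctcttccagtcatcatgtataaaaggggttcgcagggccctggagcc
Il6, chr5:30012864-30013113, plus strand: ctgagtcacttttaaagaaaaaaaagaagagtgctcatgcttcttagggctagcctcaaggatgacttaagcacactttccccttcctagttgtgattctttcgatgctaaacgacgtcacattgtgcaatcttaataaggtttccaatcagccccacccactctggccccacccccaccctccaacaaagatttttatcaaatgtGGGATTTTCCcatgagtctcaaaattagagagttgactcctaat
The Cxcl1 window held 2 matches, 89 to 80 bases before the start (on the minus strand) and 71 to 62 bases before it. The Cxcl2 window also held 2, at 97 to 88 and 78 to 69 bases, and Cxcl3 and Il6 held 1 each, at 73 to 64 and 44 to 35 bases. The same form was in 464 of 32851 promoters of that length (1.41%), and in 2 of the 14 other tested members of the list that are in the table (Csf1 and Ccl20). Cxcl1, Cxcl2 and Cxcl3 lie close together and share the match GGGAATTTCC, so they are not separate cases. The low-p members were picked from these same data, and the shares were not tested. Il1b and Lif were in the table and held no match, while Osm, Csf3 and Ccl2 were not in it and were not searched. A match of letters is a description of the sequence and not a site of binding.

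Cxcl1, a ligand of Cxcr2 that recruits neutrophils, stood at 155 and 28.8 CPM with free MSI DNA and 18.1 and 52.3 CPM with free CIN DNA. With the other form it stood at 8.61 and 14.9 CPM with MSI micronuclei and 16.7 and 12.5 CPM with CIN micronuclei. The lowest free DNA library, CIN free 1, was just above the highest micronuclei library, CIN micronuclei 1, and MSI free 1 was far above all others. The means were 63.6 ± 62.7 CPM for free DNA against 13.2 ± 3.49 CPM for micronuclei, and the log2 fold change was 2.12 ± 0.73. Without MSI free 1 it was 1.27. Cxcl2, another ligand of that receptor, was at 31.05 and 16.1 CPM with free MSI DNA, 7.48 and 20.9 CPM with free CIN DNA, 4.95 and 6.74 CPM with MSI micronuclei and 8.47 and 4.96 CPM with CIN micronuclei. Only CIN free 1 lay within the micronuclei range. Its log2 fold change was 1.54 ± 0.41. Cxcl3, the third of this group, had the same low library: values were 25.2 and 16.5 CPM with free MSI DNA, 5.31 and 15.1 CPM with free CIN DNA, 4.43 and 6.41 CPM with MSI micronuclei and 6.44 and 5.14 CPM with CIN micronuclei, with a log2 fold change of 1.38 ± 0.40.

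Il6, a cytokine that signals through gp130 and STAT3, was at 40.2 and 5.42 CPM with free MSI DNA, 2.82 and 11.7 CPM with free CIN DNA, 1.36 and 3.73 CPM with MSI micronuclei and 1.63 and 3.28 CPM with CIN micronuclei. MSI free 1 was again the highest library and CIN free 1 again the lowest of its form, below MSI micronuclei 2 and CIN micronuclei 2. The log2 fold change was 2.35 ± 0.86, and 1.35 without MSI free 1. Osm, oncostatin M, another cytokine of the IL-6 family, was at 6.78 and 6.13 CPM with free MSI DNA, 3.63 and 4.27 CPM with free CIN DNA, 3.15 and 3.57 CPM with MSI micronuclei and 2.61 and 1.98 CPM with CIN micronuclei. The gap was narrow, between CIN free 1 and MSI micronuclei 2, and the log2 fold change was 0.86 ± 0.24. Lif, a further member of that family, ranged over 22.3 to 36.6 CPM for free DNA against 15.7 to 23.1 CPM for micronuclei, overlapped, and had a log2 fold change of 0.51 ± 0.20. Tnf, a prototype NF-kB target, ranged over 4.60 to 8.33 CPM for free DNA against 4.15 to 6.68 CPM for micronuclei with a log2 fold change of 0.19 ± 0.27.

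Il1b, the inflammasome-processed cytokine interleukin 1 beta, was at 42.7 and 46.1 CPM with free MSI DNA, 21.7 and 41.4 CPM with free CIN DNA, 20.8 and 26.7 CPM with MSI micronuclei and 22.8 and 21.99 CPM with CIN micronuclei. Here 3 free DNA libraries were above all micronuclei libraries and CIN free 1 was inside their range, with a log2 fold change of 0.70 ± 0.21. Ccl2, which recruits monocytes, had the same pattern at 77.1 to 152 CPM for free DNA against 72.98 to 101 CPM for micronuclei, with a log2 fold change of 0.48 ± 0.20. Csf3, the granulocyte growth factor G-CSF, was near the detection limit at 0.488 to 3.39 CPM for free DNA against 0.248 to 1.30 CPM for micronuclei, with a log2 fold change of 1.45 ± 0.60. In Cxcl2, Cxcl3, Il1b and Ccl2 alike, CIN free 1 was the lowest library of its form and lay inside the range of the micronuclei libraries. That library had the highest total, 17937501 counts, and a skeletal muscle level of 0.51.

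**Figure D2:**
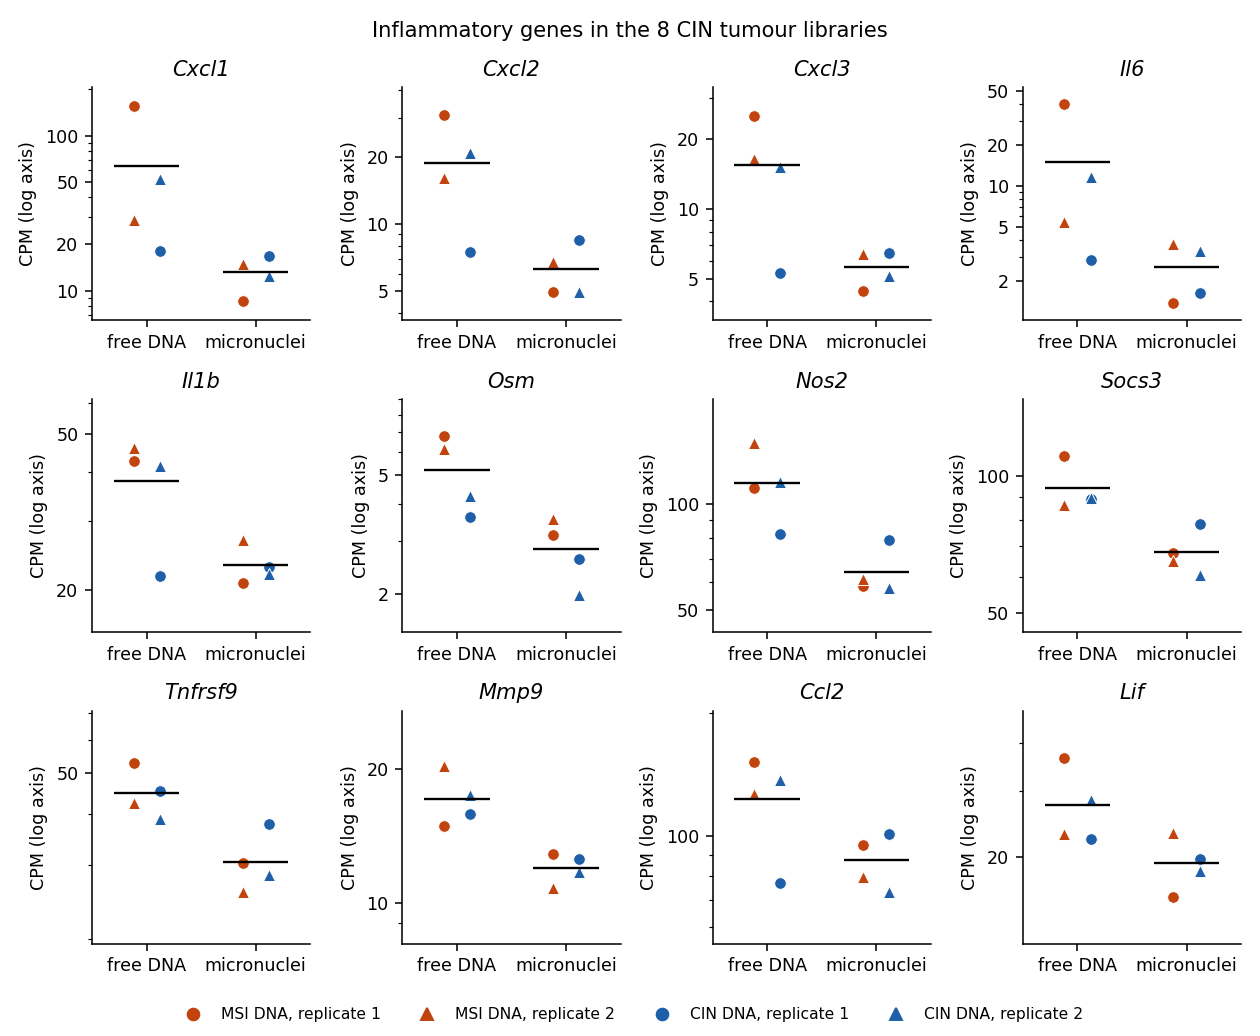
CPM on a log axis of 12 inflammatory genes in the 4 free DNA and 4 micronuclei libraries of CIN tumours; points are libraries, colour the DNA source, shape the replicate number and the bar the mean. Cxcl1, Osm, Nos2, Socs3, Tnfrsf9 and Mmp9 do not overlap between the forms, and in Cxcl2, Cxcl3, Il1b and Ccl2 only CIN free 1 lies within the micronuclei range.

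As libraries were left out in turn, 22 to 25 of 28 or 29 tested members of the cytokine list were higher with free DNA, the median stayed between 0.33 and 0.50, and 4 to 9 members were higher at an unadjusted p under 0.05. Without the 4 muscle-rich libraries, 21 of 29 were higher with a median of 0.40, and the members at an unadjusted p under 0.05 were 4 higher and 1 lower.

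Of 12 protein-coding genes named for the smallest p among those higher in all 4 free DNA libraries, 6 belong to inflammation (Nos2, Socs3, Osm, Tnfrsf9, Mmp9 and Cxcl1), as judged by textbook function after their values were seen. The share of such genes over all genes tested was not counted, so 6 of 12 has no background to be read against. Nos2, the inducible nitric oxide synthase of activated macrophages (chromosome 11, 78920787 to 78960254, GRCm38), was at 111 and 149 CPM with free MSI DNA and 82.4 and 116 CPM with free CIN DNA. In the micronuclei libraries it was at 58.6 and 61.1 CPM with MSI micronuclei and 78.9 and 57.8 CPM with CIN micronuclei. All 4 free DNA libraries were higher, by a narrow margin between CIN free 1 and CIN micronuclei 1. The log2 fold change was 0.83 ± 0.19. With no filter on low counts, Nos2 alone passed the threshold, at an edgeR adjusted p of 0.0436.

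Socs3, a feedback inhibitor of gp130 signalling and a STAT3 target, was at 111 and 86.4 CPM with free MSI DNA, 88.8 and 89.6 CPM with free CIN DNA, 67.5 and 64.9 CPM with MSI micronuclei and 78.4 and 60.5 CPM with CIN micronuclei. The forms did not overlap, and 3 of the free DNA libraries were within a few CPM of each other. The log2 fold change was 0.47 ± 0.13. Its promoter is shown because it holds the STAT form TTCNNNGAA, which reads the same on both strands and was in 2306 of 32851 promoters (7.02%). Among the cytokine genes the STAT form was in 0 of the 6 low-p members in the table and in 1 of the 14 others (Ccl17).
Socs3, chr11:117969367-117969616, minus strand: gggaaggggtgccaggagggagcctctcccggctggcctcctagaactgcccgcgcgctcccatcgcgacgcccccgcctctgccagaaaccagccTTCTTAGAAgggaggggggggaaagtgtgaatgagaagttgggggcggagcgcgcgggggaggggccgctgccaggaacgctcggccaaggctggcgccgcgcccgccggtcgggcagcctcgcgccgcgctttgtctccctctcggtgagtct
The match, in capitals, lies 154 to 146 bases before the RefSeq start. In the annotation used for counting, Socs3 spans 117966079 to 117970047, so this window lies inside the counted gene and not upstream of it.

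Tnfrsf9, the T cell costimulatory receptor 4-1BB, was at 53.1 and 42.3 CPM with free MSI DNA, 45.3 and 38.7 CPM with free CIN DNA, 30.4 and 25.9 CPM with MSI micronuclei and 37.6 and 28.5 CPM with CIN micronuclei. CIN free 2 was only just above CIN micronuclei 1, and the log2 fold change was 0.55 ± 0.16. Its span overlaps the gene Camta1 on the opposite strand, and how the counting treated strand is not stated. Mmp9, a gelatinase stored in neutrophil granules and also made by macrophages, was at 14.9 and 20.3 CPM with free MSI DNA, 15.9 and 17.5 CPM with free CIN DNA, 12.9 and 10.8 CPM with MSI micronuclei and 12.5 and 11.8 CPM with CIN micronuclei. These did not overlap, at a log2 fold change of 0.52 ± 0.16. Mmp2, the stromal gelatinase, ranged over 703 to 908 CPM for free DNA against 592 to 688 CPM for micronuclei with a log2 fold change of 0.34 ± 0.12, and Ackr3, a scavenging receptor for Cxcl12, over 242 to 277 CPM for free DNA against 156 to 238 CPM for micronuclei with 0.40 ± 0.14. Both were higher in every free DNA library.

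A further 4 of the 12 were Rpl17, described with its pseudogenes after the genes that were lower, and Nat6, Gtf3c5 and Rhd. Nat6, an actin acetyltransferase whose span overlaps Hyal1 and Hyal3, ranged over 18.8 to 22.7 CPM for free DNA against 13.98 to 17.1 CPM for micronuclei (log2 fold change 0.39 ± 0.14). Gtf3c5, a subunit of the RNA polymerase III factor TFIIIC, ranged over 47.1 to 50.2 CPM for free DNA against 36.99 to 42.05 CPM for micronuclei (log2 fold change 0.26 ± 0.10). Rhd, a red cell membrane protein, ranged over 3.04 to 4.14 CPM for free DNA against 1.55 to 2.84 CPM for micronuclei (log2 fold change 0.87 ± 0.32), at levels where few reads were counted.

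Neutrophil markers were sparse and higher on balance with free DNA. Of 14 listed genes 8 could be tested, all 8 had a log2 fold change above 0, and the median was 0.70. S100a9 and Mmp9 had an unadjusted p under 0.05. S100a9, a subunit of calprotectin in neutrophils and monocytes, was at 3.47 and 9.23 CPM with free MSI DNA, 1.57 and 2.70 CPM with free CIN DNA, 0.426 and 1.62 CPM with MSI micronuclei and 1.22 and 1.42 CPM with CIN micronuclei. CIN free 1 was within the micronuclei range, MSI free 2 was the highest, and the log2 fold change was 1.65 ± 0.62. Its partner S100a8 ranged over 0.867 to 7.62 CPM for free DNA against 1.14 to 1.87 CPM for micronuclei (log2 fold change 1.00 ± 0.62), and Lcn2, lipocalin 2, which epithelium also makes, over 4.28 to 21.8 CPM for free DNA against 0.171 to 6.03 CPM for micronuclei (log2 fold change 1.98 ± 0.94). Ly6g, the surface marker of mouse neutrophils, had means of 36.7 ± 25.5 CPM for free DNA against 38.6 ± 25.6 CPM for micronuclei. The granule genes Elane and Mpo had 3 and 2 counts in all 8 libraries together, Ngp had 9 and Camp 32, and these, Retnlg and Ltf were not tested. Without MSI free 2, 6 of 10 tested markers were higher, with a median of 0.27. Without the 4 muscle-rich libraries 3 of 7 tested markers were higher, with a median of -0.0012. The neutrophil list had a mean log2 CPM of 1.72 to 3.08 in the free DNA libraries and 0.82 to 2.01 in the micronuclei libraries, lowest in MSI micronuclei 1.

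Genes of the type I interferon response were close between the forms. Of 36 members 33 were higher with free DNA, with a median log2 fold change of 0.11, and 1 (Rsad2) had an unadjusted p under 0.05. Rsad2, viperin, an antiviral enzyme, was at 14.8 and 20.5 CPM with free MSI DNA, 22.4 and 17.4 CPM with free CIN DNA, 10.4 and 11.9 CPM with MSI micronuclei and 10.1 and 19.3 CPM with CIN micronuclei. CIN micronuclei 2 lay among the free DNA libraries, and the log2 fold change was 0.55 ± 0.23. Ifit1, which binds viral RNA caps, had means of 36.9 ± 2.93 CPM for free DNA against 30.7 ± 10.6 CPM for micronuclei (log2 fold change 0.32 ± 0.18). Isg15, the ubiquitin-like modifier, had means of 26.1 ± 1.70 CPM for free DNA against 24.1 ± 4.45 CPM for micronuclei (log2 fold change 0.12 ± 0.14), and Irf7, the factor that amplifies interferon genes, had 66.7 ± 16.4 CPM for free DNA against 66.4 ± 35.7 CPM for micronuclei (log2 fold change 0.15 ± 0.40). In all 3 the forms overlapped. The highest of the 8 libraries for Ifit1, Isg15 and Irf7 was CIN micronuclei 2. Without MSI micronuclei 1, 21 of 36 members were higher (median 0.074), and without MSI free 2, 23 of 36 (0.051), near the share over all genes. Without the 4 muscle-rich libraries the direction differed: 4 of 36 were higher, 32 were lower, and the median was -0.20. Both micronuclei libraries left in that setting are of CIN DNA.

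The interferon gamma response list held 21 of 23 members higher with free DNA and a median of 0.26. Nos2 was its only member at an unadjusted p under 0.05 and its only member without overlap. Gbp3, a guanylate-binding GTPase, ranged over 166 to 222 CPM for free DNA against 133 to 202 CPM for micronuclei (log2 fold change 0.31 ± 0.15). Cd274, which encodes the checkpoint ligand PD-L1, ranged over 54.3 to 89.1 CPM for free DNA against 54.6 to 68.03 CPM for micronuclei (0.29 ± 0.16). The T cell attracting chemokines Cxcl9 and Cxcl10 had log2 fold changes of 0.079 ± 0.11 and 0.25 ± 0.15, and both were highest in CIN micronuclei 1. Ifng itself was at 2.50 ± 0.560 CPM for free DNA against 2.68 ± 1.27 CPM for micronuclei. As single libraries were left out the list median ran from 0.18 to 0.36, and it was 0.088 without the 4 muscle-rich libraries.

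The sensors themselves showed no common direction. In the cytosolic DNA sensing list 12 of 20 tested genes were higher, 8 were lower, the median was 0.061 and 0 had an unadjusted p under 0.05. In the absence of the 4 muscle-rich libraries 6 of 20 were higher (median -0.082), and without MSI free 2, 9 of 20 (-0.014). Mb21d1, which encodes cGAS, had means of 7.85 ± 1.91 CPM for free DNA against 9.24 ± 2.49 CPM for micronuclei (log2 fold change -0.20 ± 0.25). Tmem173, which encodes STING, had 55.5 ± 3.79 CPM for free DNA against 49.8 ± 5.81 CPM for micronuclei (0.16 ± 0.12). Ifi204, a DNA-binding protein of the HIN-200 family, had 62.6 ± 9.33 CPM for free DNA against 49.4 ± 12.1 CPM for micronuclei (0.35 ± 0.18), with overlap. Ifnb1 was too low to test, with 6 counts in the 8 libraries together, 4 of them in MSI free 2, and Trex1 had 0 counts in all 16 libraries.

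Antigen presentation and lymphocyte genes overlapped between the forms. In the MHC class I list 21 of 22 members were higher with a median of 0.099 and 0 had an unadjusted p under 0.05. H2-K1, a class I heavy chain, had a log2 fold change of 0.10 ± 0.15, B2m, the light chain, 0.076 ± 0.12, and Tap1, the peptide transporter, 0.23 ± 0.13. In the MHC class II and costimulation list 9 of 15 members were higher, with a median of 0.013. In the T cell list 14 of 21 were higher with a median of 0.065, and in the dendritic cell list 8 of 14 with a median of 0.047. None of these lists held a member at an unadjusted p under 0.05. The direction of the T cell list depended on the libraries used: 5 of 21 were higher without the 4 muscle-rich libraries (median -0.062), 9 of 21 without MSI micronuclei 2 (-0.11) and 19 of 21 without CIN free 2 (0.29). MHC class II ran from 3 of 15 higher without CIN free 1 (-0.12) to 14 of 15 without CIN free 2 (0.15), and dendritic cell genes from 5 of 16 without CIN micronuclei 1 (-0.079) to 10 of 16 without CIN free 2 (0.11). For MHC class I the count without MSI micronuclei 2 was 15 of 22 (median 0.015).

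In the list of cytotoxic lymphocytes and NK cells 10 of 16 tested members were lower with free DNA, with a median of -0.13. The sign depended on single libraries: without CIN micronuclei 1, 10 of 17 were higher (median 0.061), and without CIN free 2, 10 of 17 (0.070). Gzmk, a granzyme of memory-like CD8 T cells, was at 0.377 and 0.417 CPM with free MSI DNA, 0.434 and 0.251 CPM with free CIN DNA, 1.28 and 1.14 CPM with MSI micronuclei and 0.733 and 0.620 CPM with CIN micronuclei. All 4 free DNA libraries were lower, on 72 counts in the 8 libraries together, and the log2 fold change was -1.27 ± 0.51. Gzmb and Prf1, the granzyme and the pore former of killing lymphocytes, had log2 fold changes of 0.30 ± 0.30 and 0.28 ± 0.26, with overlap. Foxp3, the factor of regulatory T cells, ranged over 0.678 to 1.25 CPM for free DNA against 0.978 to 2.64 CPM for micronuclei with a log2 fold change of -0.98 ± 0.48. The span of Gzmk overlaps the gene Esm1 on the opposite strand, and that of Foxp3 overlaps Ccdc22. How the counting treated strand is not stated.

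Hypoxia and glycolysis genes were slightly higher with free DNA in 19 of 20 members, with a median of 0.16. Slc2a1, the glucose transporter GLUT1, was at 168 and 171 CPM with free MSI DNA, 186 and 197 CPM with free CIN DNA, 164 and 151 CPM with MSI micronuclei and 138 and 143 CPM with CIN micronuclei. These did not overlap, and the log2 fold change was 0.28 ± 0.11. Pdk1, which holds pyruvate back from the mitochondrion, ranged over 131 to 152 CPM for free DNA against 117 to 133 CPM for micronuclei (0.23 ± 0.10). By DNA source, 10 of 20 were higher with MSI DNA (median -0.012) and 17 of 20 with CIN DNA (median 0.36). Over both sources the median stayed between 0.11 and 0.28 in all 19 alternatives run. Of 18 matrix and fibroblast genes 12 were higher (median 0.12). Without the 4 muscle-rich libraries 7 of 18 were higher, with a median of -0.13 and 5 lower and 0 higher at an unadjusted p under 0.05. Mmp2, above, was the member at an unadjusted p under 0.05, and Dcn, the proteoglycan decorin, had means of 790.3 ± 216 CPM for free DNA against 549 ± 146 CPM for micronuclei (0.56 ± 0.25). Of 18 immediate early genes 14 were higher with a median of 0.12, and 9 of 18 without CIN micronuclei 2 (0.0060). Ier3, an NF-kB and stress responsive gene, had means of 60.6 ± 26.7 CPM for free DNA against 39.5 ± 4.71 CPM for micronuclei (0.59 ± 0.27), with MSI free 1 highest at 99.9 CPM. Without that library its log2 fold change was 0.23. Fosb was the member at an unadjusted p under 0.05, and it was lower.

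**Figure D3:**
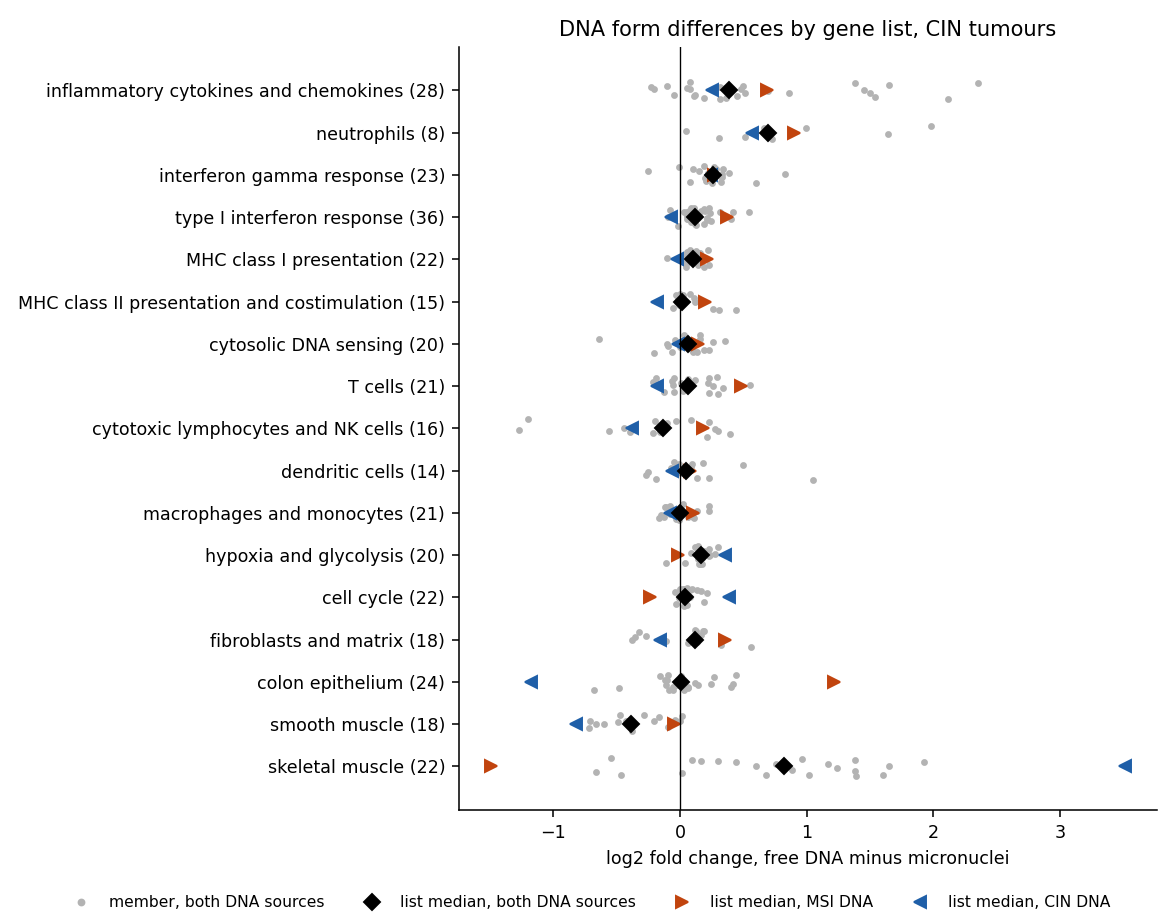
Log2 fold change, free DNA minus micronuclei (x axis), for the tested members of 17 gene lists (number in brackets); grey points are members, the black diamond the list median and the coloured triangles the list medians within MSI DNA and within CIN DNA. Inflammatory cytokines have a median of 0.39, with both triangles right of 0, while colon epithelium is at 1.22 with MSI DNA and -1.17 with CIN DNA.

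Fewer genes were lower in every free DNA library than were higher in every one, 54 against 91. Fosb, a subunit of the AP-1 transcription factor, was at 7.16 and 5.12 CPM with free MSI DNA, 6.99 and 5.96 CPM with free CIN DNA, 8.36 and 11.1 CPM with MSI micronuclei and 13.4 and 7.25 CPM with CIN micronuclei. The margin between MSI free 1 and CIN micronuclei 2 was small, and the log2 fold change was -0.67 ± 0.25. Lhpp, a histidine phosphatase, was at 8.52 and 10.001 CPM with free MSI DNA, 9.38 and 10.6 CPM with free CIN DNA, 13.3 and 15.02 CPM with MSI micronuclei and 12.5 and 11.7 CPM with CIN micronuclei, with a log2 fold change of -0.45 ± 0.17. Toe1, a deadenylase of small nuclear RNAs, ranged over 10.3 to 11.2 CPM for free DNA against 12.5 to 15.4 CPM for micronuclei (-0.36 ± 0.15). Pitpnc1, a lipid transfer protein, ranged over 9.29 to 11.9 CPM for free DNA against 12.6 to 15.6 CPM for micronuclei (-0.37 ± 0.16), and Itpr2, a calcium channel of the endoplasmic reticulum, over 10.3 to 16.003 CPM for free DNA against 16.2 to 22.8 CPM for micronuclei (-0.42 ± 0.19). The other 7 of the 12 named were Selenoo, B230307C23Rik, 1110012L19Rik, Timm10b, Erlin1, Zfp511 and Bbs7. Their log2 fold changes were -0.28, -0.45, -0.31, -0.42, -0.18, -0.22 and -0.30. For these 7, and for Pitpnc1 and Itpr2, the unadjusted edgeR p was above 0.05. Lhpp, Toe1, Selenoo, B230307C23Rik, Timm10b and Zfp511 overlap another protein-coding gene.

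Rpl17, a protein of the large ribosomal subunit (chromosome 18, 75000477 to 75003381, GRCm38), had the smallest unadjusted p of all genes. It was at 368 and 317 CPM with free MSI DNA, 302 and 274 CPM with free CIN DNA, 203 and 185 CPM with MSI micronuclei and 206 and 226 CPM with CIN micronuclei. All 4 free DNA libraries were higher, the means were 315 ± 39.2 CPM for free DNA against 205 ± 16.8 CPM for micronuclei, and the log2 fold change was 0.62 ± 0.12. The files also list 11 Rpl17 pseudogenes, near copies that can take its reads. Summed, these were at 397 ± 64.4 CPM for free DNA against 483 ± 70.2 CPM for micronuclei, the opposite order. The sum of gene and pseudogenes was 712 ± 90.4 and 688 ± 69.0 CPM. How reads were divided between these copies was not tested, so the value of Rpl17 alone is uncertain. Ribosomal protein genes as a whole took 4.39% ± 0.355 of counts with free DNA and 4.21% ± 0.396 with micronuclei.

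Split by DNA source, the contrast of forms rests on 2 libraries against 2. With MSI DNA 0 of 17604 genes (0%) passed the adjusted threshold and 552 (3.14%) had an unadjusted p under 0.05, 2.37% higher and 0.767% lower. With CIN DNA 0 (0%) passed and 523 (2.97%) had an unadjusted p under 0.05, 1.85% higher and 1.12% lower. DESeq2 called 10 genes with MSI DNA and 3 with CIN DNA. Without MSI micronuclei 2 edgeR called 867 genes with MSI DNA, a fit in which MSI micronuclei 1 stands alone and is assumed to vary like the other groups. The cytokine list was higher with free DNA in 24 of 28 members with MSI DNA (53.4% of all genes were higher and 46.6% lower) and 21 of 28 with CIN DNA (52.6% of all genes higher and 47.4% lower), at medians of 0.68 and 0.25. The interferon gamma list had medians of 0.27 and 0.25. For type I interferon genes the medians were 0.37 with MSI DNA, 34 of 36 members higher, and -0.071 with CIN DNA, 13 of 36 higher. Colon epithelium genes were higher in 24 of 24 with MSI DNA (median 1.22) and in 0 of 24 with CIN DNA (median -1.17). Skeletal muscle genes had medians of -1.50 and 3.52, and B and plasma cell genes 1.84 and -0.21. MSI micronuclei 1 belongs to the MSI contrast. The part of tissue content in the interferon difference was not tested, and tissue content and DNA source cannot be told apart within 2 libraries.

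The difference of the form contrast between the DNA sources was tested as an interaction. Of 17604 genes 0 (0%) passed, the smallest adjusted p was 0.435, and 1437 (8.16%) had an unadjusted p under 0.05, 800 positive (4.54%) and 637 negative (3.62%). DESeq2 called 15 genes, and edgeR called 1303 without MSI micronuclei 2, again with MSI micronuclei 1 alone. Whatever its p, the difference was above 0 in 50.4% of genes and below 0 in 49.6%. In the type I interferon list 6 of 36 members were positive at that p and 0 negative. They included Irf7 (MSI DNA minus CIN DNA, 1.56 ± 0.51) and Ifit1 (0.72 ± 0.28). In the cytokine list 0 of 28 members had an unadjusted p under 0.05 for this difference. The cell cycle list had 8 of 22 members negative, the hypoxia list 6 of 20 and skeletal muscle 6 of 22. Skeletal muscle actin, Acta1, was at 2.34 and 51.4 CPM with free MSI DNA, 5.91 and 98.03 CPM with free CIN DNA, 81.3 and 59.01 CPM with MSI micronuclei and 3.34 and 3.35 CPM with CIN micronuclei, high in the same 4 libraries as that list.

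Thbs2, a matrix glycoprotein, was at 19.2 and 24.9 CPM with free MSI DNA, 14.4 and 16.8 CPM with free CIN DNA, 7.08 and 15.3 CPM with MSI micronuclei and 54.6 and 45.2 CPM with CIN micronuclei. The 2 CIN micronuclei libraries were high and the 2 MSI micronuclei libraries low or level with free DNA, and the interaction was 2.66 ± 0.48 (edgeR adjusted p = 0.568). Serpine2, a protease inhibitor, Gpx3, the secreted glutathione peroxidase, and Rasa4, a Ras GTPase activator, had interactions of 1.91, 2.56 and 1.10, and each was highest in the 2 CIN micronuclei libraries. Cdsn, corneodesmosin of cornified epithelium, ran the other way. It was at 26.1 and 23.2 CPM with free MSI DNA, 55.1 and 40.3 CPM with free CIN DNA, 68.04 and 48.9 CPM with MSI micronuclei and 16.5 and 18.1 CPM with CIN micronuclei, and its interaction of -2.71 ± 0.32 had the smallest p of all genes (edgeR adjusted p = 0.435). Trib3, a pseudokinase of the ATF4 stress response, P2rx3, an ATP-gated channel, and Gm47283 had interactions of -1.19, -3.23 and -1.61. The genes that DESeq2 called for this difference include Cdsn, Thbs2, Gpx3, P2rx3 and Trib3. Over both sources Cdsn averaged 36.2 ± 14.7 CPM for free DNA against 37.9 ± 25.04 CPM for micronuclei.

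**Figure D4:**
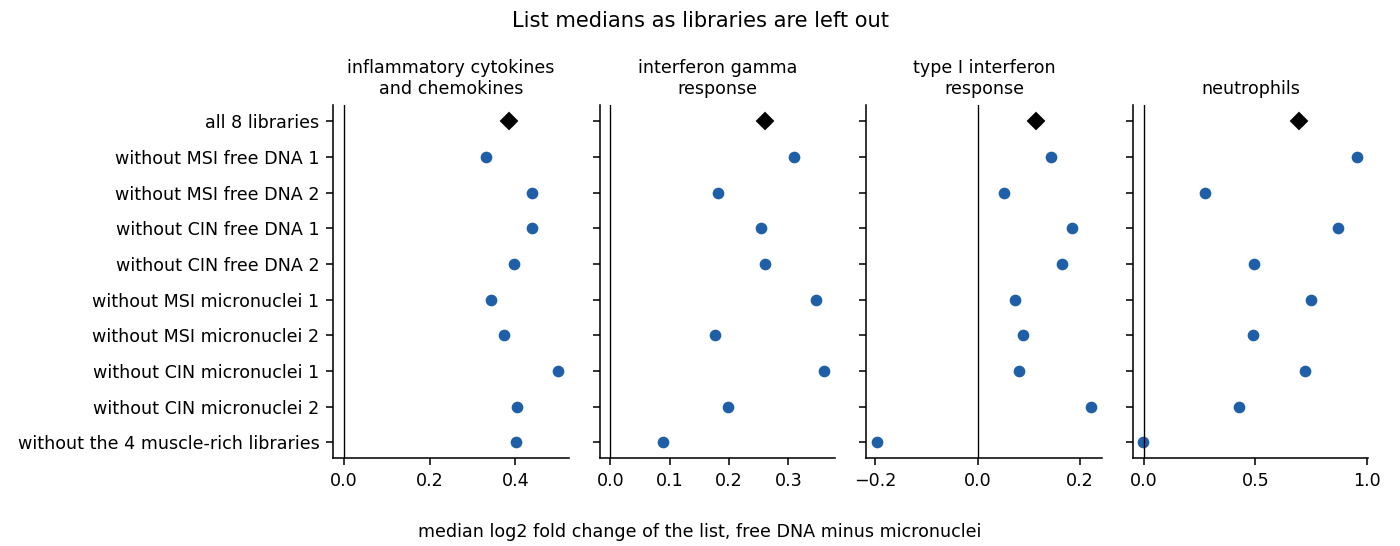
Median log2 fold change (x axes) of 4 gene lists with all 8 libraries (diamond), with each library left out and without the 4 muscle-rich libraries (circles). The cytokine median stays between 0.33 and 0.50, the type I interferon median turns to -0.20 without the 4 muscle-rich libraries and the neutrophil median to -0.0012. Leaving out those 4 removes both MSI micronuclei libraries, so DNA source changes with muscle content.

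Against tumours of the MSI line in mice given the same 4 kinds of dendritic cells, the form contrast was compared by an interaction over all 16 libraries. Of 18777 genes 0 (0%) passed, the smallest adjusted p was 0.999967, and 159 (0.847%) had an unadjusted p under 0.05, while the difference was below 0 in 46.3%. DESeq2 called 0, with 204 genes at that p. No difference between the tumour types was therefore shown for any gene. In MSI tumours 18 of 28 cytokine genes were higher with free DNA, where 9119 of 18777 genes (48.6%) were, with a median of 0.14, and 36 of 36 type I interferon genes were, with a median of 0.41. Neutrophil markers had 3 of 9 higher and a median of -0.18 there. In the cytokine list 3 of 28 members had an unadjusted p under 0.05 for the difference, Cxcl1, Cxcl2 and Il6, and all 3 were positive. Cxcl1 in MSI tumours ranged over 4.09 to 10.1 CPM for free DNA against 7.90 to 12.7 CPM for micronuclei. Its form contrast there was -0.48 ± 0.51, and the difference of the contrasts was 2.59 ± 0.73 (edgeR adjusted p = 0.999967). For Il6, at most 1.62 CPM in any MSI tumour library, the difference was 3.57 ± 1.07 (edgeR adjusted p = 0.999967).

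Among the other genes named for that difference, Il13ra2, the decoy receptor of interleukin 13, was at 15.1 and 5.89 CPM with free MSI DNA, 4.06 and 10.2 CPM with free CIN DNA, 1.19 and 1.70 CPM with MSI micronuclei and 6.52 and 3.84 CPM with CIN micronuclei in CIN tumours. The 2 MSI micronuclei libraries were lowest, and its difference between tumour types was 1.81 ± 0.53. Rpl17 had a contrast of -0.23 ± 0.15 in MSI tumours and a difference of 0.82 ± 0.21. Of the negative ones, Srp54b, a copy of a signal recognition particle subunit, had -2.45 ± 0.81. Slc7a8, an amino acid transporter, had -0.51 ± 0.20, and Gna15, a G protein alpha subunit, -0.79 ± 0.31. Cxcl3 had contrasts of 1.38 ± 0.40 in CIN and 1.24 ± 0.48 in MSI tumours, and Nos2 had 0.83 ± 0.19 and 0.29 ± 0.26.

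**Figure D5:**
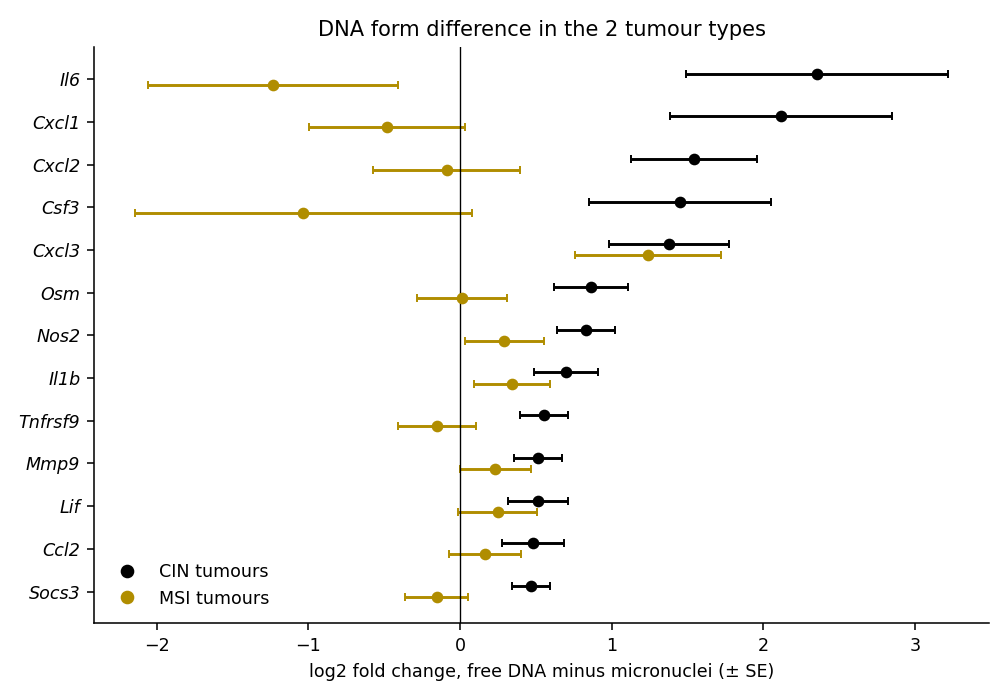
Log2 fold change, free DNA minus micronuclei, with its SE (x axis) for 13 inflammatory genes in CIN tumours (black) and MSI tumours (yellow). The CIN values come from the fit to the 8 CIN tumour libraries. The MSI values come from a fit to all 16 libraries, so the 2 sets of SE rest on different spreads. Il6 is at 2.35 in CIN and -1.24 in MSI tumours, and Cxcl3 is at 1.38 and 1.24.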

How the data were processed

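The authors deposited whole-number counts per gene, made with fastp, HISAT2 2.0.5 and featureCounts 1.5.0-p3 per the submitters' processing notes. The notes name GRCm39, but 53585 of 54495 gene identifiers shared with GENCODE M21 have GRCm38 coordinates in the file, so coordinates are given as GRCm38. The deposited FPKM table was not used, nor were 4 columns that match no sample. Strand handling and how reads of near-identical copies were assigned are not given in the sources used here.

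Samples were grouped by their titles. From the counts, edgeR 4.0.16 (R 4.3.3; TMM, filterByExpr by group, robust quasi-likelihood fit, adjusted p threshold 0.05) compared free DNA with micronuclei in the 8 CIN tumour libraries with DNA source as a covariate. Of 54532 genes 17604 were tested. The contrasts within each source and their difference used 1 mean per group. The contrast in MSI tumours and the difference between tumour types used all 16 libraries, also with 1 mean per group. The common biological coefficient of variation was 0.355. The alternatives used DESeq2 1.42.0, limma 3.58.1, other scaling, no filter, tissue scores as covariates, a replicate block and libraries left out.

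Gene lists (30), contrasts and the rule for named genes were chosen with earlier results of these data known. The rule took the 12 higher and 12 lower protein-coding genes of smallest p whose forms do not overlap (mean log2 CPM at least 1), 2 members of each list, 4 genes each way per interaction, and a set of fixed genes. One gene named by this rule is not reported here. List values are the mean log2 CPM of tested members. Lists were given no test. Libraries of the same group were further apart than counting noise allows (chi-square per degree of freedom 20.3 to 45.0) and were counted as separate samples. Of 6 correlations of deviations between same-numbered libraries, 2 were over 0.1: 0.32 between the micronuclei groups and 0.42 between the free DNA groups. Those between forms ran from -0.36 to -0.025. With 2 libraries a group, this cannot show whether same-numbered libraries pair.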

Additional observations from a re-analysis of the deposited data

Results flagged for a closer look

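Within each form of DNA, the highest or lowest of the 4 libraries stood apart by Dixon's criterion for 4 values in 11 of 184 sets of 4 tested, where chance gives about 1 in 20. For genes these were Csf3 in MSI micronuclei 2 (1.30 CPM against 0.248 to 0.426 in the other 3), Nos2 in CIN micronuclei 1 (78.9 CPM against 57.8 to 61.1) and Socs3 in MSI free 1 (111 CPM against 86.4 to 89.6). Gtf3c5 was high in MSI free 1 (50.2 CPM against 47.1 to 47.5), Foxp3 in MSI free 2 (1.25 CPM against 0.678 to 0.759), Tap1 in CIN free 1 (345 CPM against 285 to 289) and Epcam in MSI free 1 (671 CPM against 227 to 264). Among list means in log2 CPM, MSI micronuclei 1 was low for p53 targets (4.83 against 5.20 to 5.26) and smooth muscle (2.70 against 5.92 to 6.15). Erythroid genes, which mark red cell content, were high in CIN free 2 (2.62 against 0.898 to 1.12) and low in CIN micronuclei 1 (0.086 against 1.53 to 1.82).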

How the results depend on the processing

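For the form of DNA, 0 genes passed under DESeq2, limma-voom, DESeq2 size factors in edgeR, other covariates, all 16 libraries and each library left out (0 to 0). No filter on low counts gave 1 (Nos2, adjusted p 0.0436), and leaving out the 4 muscle-rich libraries gave 1 (Sumo2, lower). At an unadjusted p under 0.05 the 102 genes became 236 with no filter, 221 and 425 with the skeletal muscle or colon epithelium score as a covariate, 502 without the 4 muscle-rich libraries and 91 to 522 as libraries were left out. Within MSI DNA the count of 0 became 10 with DESeq2, 666 with no filter and 0 to 867 as libraries were left out, 867 being without MSI micronuclei 2, which leaves MSI micronuclei 1 alone. Within CIN DNA it became 3 with DESeq2 and 660 with no filter. For the difference between sources it became 15 with DESeq2, 1426 with no filter and 0 to 1303 with libraries left out, 1303 again without MSI micronuclei 2. The cause was not tested. For the difference between tumour types it was 0 in all alternatives.

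With the replicate number as a block the count was 0 in every comparison, with 117 genes at an unadjusted p under 0.05 for the form of DNA, so the block changed no call. The labels do not say whether same-numbered libraries share more than a number.

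Some log2 fold changes reversed, most of them small, but also those of Acta1 (1.17 as reported) and S100a8 (1.00 as reported). Without the 4 muscle-rich libraries these were Ifit1 -0.12, Isg15 -0.014, Irf7 -0.25, Cxcl9 -0.12, B2m -0.019, S100a8 -0.0012, Epcam -0.34 and Ly6g -0.027. That setting holds no MSI micronuclei library and no DNA source term. With the colon epithelium score as a covariate Irf7 was -0.035 and Ly6g -0.085. Ly6g was -0.12 with the replicate block, -0.078 with no source term and -0.060 with the skeletal muscle score. Epcam was -0.15 with no source term, and limma-voom gave Ifng 0.019 and Acta1 -0.73. As libraries were left out, Irf7 ran from -0.18 to 0.42, Tnf from -0.0017 to 0.33, Ifng from -0.30 to 0.34, Epcam from -0.67 to 0.44, Acta1 from -0.50 to 2.46 and Ly6g from -0.68 to 0.49. The cytokine genes with p under 0.05, Nos2, Socs3, Tnfrsf9, Mmp9 and Rpl17 kept their direction in all 19 alternatives. Several of these were named because the forms do not overlap, which all but fixes the direction when libraries are left out. The others were picked for a low p in the same data. The kept direction is therefore no separate support.

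Depth was 11561955 to 17937501 counts, and the spread between libraries, more than counting, limited the tests. With 4 libraries a form, or 2 within a source, an absent call does not show that the forms act alike. Tissue content, pooled RNA and unstated strand handling limit each value. Besides the genes for which this was said above, Acta1, B2m, Ccl2, Cxcl10, Irf7, P2rx3 and Tap1 overlap another protein-coding gene.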

Other observations

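The remaining gene lists were compared in the same way, against 58.5% of all genes higher with free DNA and a median of 0.026. Cell cycle genes were higher with free DNA in 19 of 22 members (median log2 fold change 0.042), with medians of -0.24 with MSI DNA and 0.39 with CIN DNA. Without CIN micronuclei 2, 3 of 22 were higher (median -0.13), and without CIN free 2, 7 of 22 (-0.057), so the direction rested on single libraries. Genes of p53 and the DNA damage response were higher in 8 of 18 (median -0.038), and those of apoptosis, necroptosis and pyroptosis in 8 of 18 (median -0.028). Macrophage and monocyte markers were higher in 10 of 21 members (median -0.0012), checkpoint and regulatory T cell genes in 10 of 17 (0.032), mast cell markers in 3 of 6 (-0.0073) and interferon genes and receptors in 4 of 8 (0.023). The last 6 of these medians lay near 0 and their sign depended on the libraries used. Apoptosis genes, for example, were higher in 15 of 18 without CIN free 2 (0.071), and macrophage markers in 3 of 21 without MSI free 2 (-0.12). None of these 7 lists held a member at an unadjusted edgeR p under 0.05 for the form of DNA.

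Stromal and other tissue lists also had no member at that p. Smooth muscle was lower with free DNA in 16 of 18 members (median -0.39), endothelium in 9 of 16 (-0.062), enteric neurons and glia in 7 of 13 (-0.24), mesothelium in 6 of 8 (-0.31) and adipocytes in 5 of 7 (-0.18). B and plasma cell genes were higher in 12 of 16 (0.57), erythroid genes in 4 of 5 (0.30), liver and pancreas genes in 2 of 2 (0.19), skeletal muscle genes in 19 of 22 (0.82) and colon epithelium genes in 13 of 24 (0.0072). Several of these directions rested on single libraries or on the method. Without MSI micronuclei 1 the B and plasma cell median was -0.039. Without MSI micronuclei 2 the smooth muscle median was 0.19 and that of enteric neurons and glia 0.12. Without CIN free 2 the medians were -0.55 for skeletal muscle, -0.13 for erythroid genes and 0.16 for enteric neurons and glia. Without CIN micronuclei 1 they were -0.28 for skeletal muscle and -0.092 for erythroid genes, and without CIN micronuclei 2 skeletal muscle was at -0.31. In the absence of the 4 muscle-rich libraries 1 of 16 endothelial genes were higher (-0.46), while without CIN free 2, 11 of 16 were (0.047). Without MSI micronuclei 1 the smooth muscle median was -0.84. The colon epithelium median ran from -0.65 without MSI micronuclei 1 to 0.39 without CIN free 2. With all 8 libraries kept, the skeletal muscle median was -0.80 under limma-voom and -0.25 with no DNA source term. The colon epithelium median was 0.44 and -0.19 in these settings. Both lists kept the sign of their median in 14 of the 19 alternatives run, left-out libraries included.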
